A study of Mus musculus with 26 samples.

Results

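The genes described here are 8 markers of effector and innate-like CD8 T cells, namely Tbx21, Eomes, Zbtb16, Klrd1, Ly6c2, Ifng, Xcl1 and Nkg7, taken by gene symbol from the 46517 symbols of the deposited table. All 8 are listed there, and 6 of them reached 10 normalized counts in 2 or more libraries and were tested, while Zbtb16 and Ifng stayed under that level. RNA was sequenced from thymocytes of TCR transgenic mice, each line carrying 1 MHC class I restricted receptor, with low (TG6), intermediate (F5) or high (OT-1) self-reactivity. OT-1 mice were OT-1tg Rag2KO and F5 mice were F5tg Rag1KO, both on the C57/BL6 strain, and TG6 mice were TG6tg H2b/d on C57/BL6 x B6.C-H2d/bByJ. The TG6 line is Rag-sufficient, so TG6 cells can also carry rearranged endogenous receptor chains, and every other group lacked Rag1 or Rag2. Ages are not given in the labels. Double-positive cells (CD4+CD8+) were sorted as CXCR4+CCR7- for the early and as CXCR4-CCR7+ for the late stage of positive selection, and mature CD8SP cells lacked CD4 and CXCR4 and carried CD8 and CCR7, which gave 9 groups of 3 libraries, with 2 for TG6 late positive selection, and 26 libraries in all. The labels call the libraries of a group biological replicates, and p-values rest on the spread between replicates, pooled over all 9 groups. In sorted bulk RNA, fewer cells that express a gene and less RNA per cell cannot be told apart.

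T-bet, encoded by Tbx21, and Eomes are related T-box transcription factors that drive the effector and memory programs of CD8 T cells and NK cells, and PLZF, encoded by Zbtb16, directs invariant NKT cells and other innate-like T cells. Most conventional CD8 T cells leave the thymus naive, with little of the cytokine and cytotoxic program that these factors control. Thymocytes that do acquire such a program during development are called innate-like, and Eomes, NK receptors, Ly6C and rapid interferon gamma production are among its usual marks.

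Values are normalized counts, on a scale where 1 read is worth 0.945 to 1.05, and the estimated depth was 16161723 to 18345795 reads per library. Libraries of a group correlated at 0.95 to 0.978. Of the genes of the sort, Cd4 and Ccr7 followed the labels and Cxcr4 did so only in part. Across all lines, Cd4 lay at 7980 to 22731 in early, 1455 to 10664 in late and 62.8 to 461 in mature libraries, and Ccr7 at 112 to 863, 2698 to 10976 and 3958 to 12719. Cxcr4 lay at 1425 to 5527 in early, 350 to 2561 in late and 1219 to 4031 in mature libraries, so that the early and mature ranges overlapped, and in OT-1 the mean of the mature cells, sorted as CXCR4-, was 2160 ± 1065 against 2022 ± 775 in the early cells, sorted as CXCR4+ (SD, n = 3 each). The mitochondrial share of the total was 1.51 to 3.58%. TG6 mature CD8SP replicate 3 stood apart from the other two, with a Cd4 value of 461 against 129 and 77.1 and a Mki67 value of 23175 against 6220 and 7129, and the member comparisons that use TG6 mature cells were therefore fitted again without it. No call of a member was lost in that fit, and F5 minus TG6 in mature cells was gained for Klrd1. NK cell markers were low: Ncr1 was at 0 in every library, and the sum of 7 markers lay between 3.47 and 68.1 over all libraries, highest in OT-1 early positive selection (22.5 to 68.1), where Tyrobp (34.7 ± 19.1, SD, n = 3) and Fcer1g (12.1 ± 6.44), which myeloid cells also express, made up most of it and Klrb1c and Klra8 were at 0. The sum of 8 myeloid and dendritic cell markers lay at 875 to 912 in OT-1, 835 to 884 in TG6 and 940 to 962 in F5 early libraries. Within that list the means of Csf1r, Lyz2 and Itgax, named after their values were seen, were 27.0, 57.65 and 33.0 in OT-1 early cells against 3.08, 14.9 and 2.61 in TG6 and 1.85, 11.3 and 1.94 in F5, while that of Itgam was lower in OT-1 (75.7 against 219.5 and 193). Of the gamma delta T cell list, 4 of 6 markers are in the table, and their sum in early libraries was 9030 to 9876 in OT-1, 8817 to 10041 in F5 and 1812 to 2114 in TG6. Trdc, the constant segment of the delta chain, had early means of 9389 in F5, 7064 in OT-1 and 1855 in TG6, and Sox13 of 30.5, 2420 and 73.1, while Il17a was at 0 in all early libraries. F5 and OT-1 mice lack Rag1 or Rag2 and cannot rearrange these chains, so the sum is not a measure of gamma delta T cells. Transcripts of segments of the invariant NKT receptor chain (Trav11, Trav11d and Traj18, the last at 0 in every library) summed to 9.68 to 39.4 in TG6 libraries and to at most 6.13 in F5 and OT-1 libraries. With Traj18 at 0, these sums do not show the joined invariant chain.

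Among the transcription factors, Tbx21 (chromosome 11, 97098071 to 97115331, minus strand, GRCm38) was a low transcript with a dip at late positive selection in every line. In TG6 it lay at 4.95, 3.98 and 5.81 in early, 0 and 0 in late and 5.05, 6.10 and 16.8 in mature libraries. In F5 it lay at 14.6, 27.1 and 17.5, then at 0, 2.01 and 0, then at 7.08, 16.1 and 10.03. In OT-1 it lay at 7.99, 4.02 and 9.86, then at 0, 0 and 3.04, then at 8.23, 1.04 and 11.1. The early and late libraries did not overlap in any line, and 6 of the 8 late libraries were at 0. Tbx21 fell from early to late positive selection in TG6 (log2 change of log2(value + 1) -2.55 ± 0.75 SE, limma adjusted p = 0.014), in F5 (-3.80 ± 0.67, adjusted p = 0.00018) and in OT-1 (-2.31 ± 0.67, adjusted p = 0.013). It rose again from late to mature in TG6 (3.19 ± 0.75, adjusted p = 0.0035, and 2.71, adjusted p = 0.021, without TG6 mature replicate 3), in F5 (2.99 ± 0.67, adjusted p = 0.0024) and in OT-1 (1.94 ± 0.67, adjusted p = 0.038), where the ranges overlapped. The OT-1 rise was not called without OT-1 mature replicate 1 or 3 or OT-1 late replicate 1 or 2 (adjusted p = 0.13 to 0.18), the TG6 fall was not called without either late library (adjusted p = 0.078 and 0.080), and the OT-1 fall was not called without OT-1 late replicate 1 or 2 or OT-1 early replicate 3 (adjusted p = 0.058 to 0.067). A pseudocount of 5 also ended the call of the OT-1 rise (adjusted p = 0.074) and of the TG6 fall (adjusted p = 0.079), as did fitting without the filter for the OT-1 rise (adjusted p = 0.065). None of the 9 differences between lines at a stage was called for Tbx21. F5 early positive selection had the highest mean, 19.7 ± 6.53 (SD, n = 3), with all 3 libraries above those of TG6 (4.91 ± 0.92) and OT-1 (7.29 ± 2.98), and the differences missed the threshold (F5 minus TG6 1.78 ± 0.67, adjusted p = 0.13, and OT-1 minus F5 -1.35 ± 0.67, adjusted p = 0.20). The first of them was called when only the groups compared were fitted (adjusted p = 0.034) and with a pseudocount of 5 (adjusted p = 0.031). In the order of the 9 group means, neighbours overlapped everywhere except between TG6 early and OT-1 late. The genes whose pattern over the 26 libraries was most like that of Tbx21 were Prss57 (Pearson r = 0.914), Kcnk5 (0.909) and Skp2 (0.894), the last a subunit of a ubiquitin ligase that acts in cell cycle entry. The proliferation marker Mki67 lay at 16189 to 34573 in early, 109 to 3139 in late and 6220 to 30471 in mature libraries and had an r of 0.85 with Tbx21 over the same libraries, which share stage and line, and its part in the Tbx21 pattern was not tested.

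Eomes (chromosome 9, 118478212 to 118486132, plus strand) was raised in the mature CD8SP cells of TG6 and OT-1 but not of F5. The OT-1 mature libraries held 100.9, 69.0 and 60.4, the TG6 mature libraries 38.4, 46.4 and 25.2, and the F5 mature libraries 6.72, 2.48 and 4.95. At early positive selection the values were 4.32, 0 and 0 in TG6, 4.94, 5.28 and 7.41 in F5 and 9.03, 1.24 and 3.53 in OT-1. At late positive selection they were 6.79 and 3.22 in TG6, 6.20, 13.4 and 6.67 in F5 and 8.27, 6.10 and 6.15 in OT-1. The OT-1 and TG6 mature libraries thus stood above all other 20 libraries, and did not overlap with each other. Eomes rose from early positive selection to mature CD8SP 16.7-fold in OT-1 (log2 4.02 ± 0.58, adjusted p = 2.2e-05) and in TG6 (log2 4.39 ± 0.58, adjusted p = 3e-06, and 4.63, adjusted p = 8.1e-06, without TG6 mature replicate 3), and most of this change fell between the late and mature stages (OT-1 3.29 ± 0.58, adjusted p = 0.00033, and TG6 2.67 ± 0.65, adjusted p = 0.005). The TG6 step from late to mature was not called without TG6 late replicate 2 (2.23, adjusted p = 0.091) or with a pseudocount of 0.1 (adjusted p = 0.065). The TG6 step from early to late was not called (1.72 ± 0.65, adjusted p = 0.059) but was with the replicate number as a random block (adjusted p = 0.043), not as a fixed term (adjusted p = 0.10). It was also called without OT-1 early replicate 1 or 2 (adjusted p = 0.045 for either) or TG6 early replicate 1 (adjusted p = 0.0032), with a range of 0.0032 to 0.36 over the libraries left out in turn. Eomes reached 10 in the 6 OT-1 and TG6 mature libraries and in 1 F5 late library, so it passed the filter mainly through the groups in which it was high. In F5, where the mature mean was 4.72 ± 2.13 (SD, n = 3) and the early mean 5.88 ± 1.34, the log2 change was -0.32 ± 0.58 (adjusted p = 0.77). In mature cells Eomes was 16.3-fold higher in OT-1 than in F5 (log2 3.81 ± 0.58, adjusted p = 7.9e-05) and 7.77-fold higher in TG6 than in F5 (F5 minus TG6 -2.75 ± 0.58, adjusted p = 0.0037, and -2.99, adjusted p = 0.0043, without TG6 mature replicate 3), the latter not called with a pseudocount of 0.1 (adjusted p = 0.081). OT-1 had 2.09 times the TG6 mean, a difference that was not called (log2 1.05 ± 0.58, adjusted p = 0.26). The change from early to mature itself differed between lines: it was larger in OT-1 than in F5 by 4.35 ± 0.83 on the log2 scale (adjusted p = 0.0058, and 0.096 with a pseudocount of 0.1) and in F5 it was smaller than in TG6, with F5 minus TG6 -4.71 ± 0.83 (adjusted p = 0.0013). At early positive selection F5 was called higher than TG6 (log2 1.96 ± 0.58, adjusted p = 0.047), a difference between values of at most 7.41 that lay at the threshold: when each of the 26 libraries was dropped in turn, the call was lost 18 times, also for libraries of other groups (adjusted p = 0.0029 to 0.21 over all 26). It was also lost with the replicate number as a random block (adjusted p = 0.052), with a pseudocount of 5 (adjusted p = 0.16) or without the filter (adjusted p = 0.09). OT-1 minus TG6 at that stage (1.42 ± 0.58, adjusted p = 0.075) was called without OT-1 early replicate 2 (adjusted p = 0.029) or TG6 early replicate 1 (adjusted p = 0.0052). The most similar genes over the libraries were Eml3 (r = 0.850), Strada (0.843) and Prelid2 (0.823), and the r of Eomes with Tbx21 was 0.06.

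Zbtb16 (chromosome 9, 48654297 to 48836222, minus strand) was at or near 0. It was listed at 0 in 19 of 26 libraries, with a highest value of 2.95 in TG6 late positive selection. In TG6 the values were 0.99, 0 and 0.97 in early, 0.98 and 2.95 in late and 0 in each mature library. All 9 F5 libraries were at 0, and each OT-1 stage had 1 library above 0 (0.99, 1.01 and 2.09). No library exceeded the 3 counts that a count of 0 allows. Fitted without the filter, TG6 mature minus TG6 late was called (-1.48, adjusted p = 0.03), a difference between groups that both lie under that limit, and no other comparison was.

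Klrd1 and Ly6c2 encode surface proteins. Klrd1 (chromosome 6, 129591782 to 129598775, plus strand) encodes CD94, which pairs with NKG2 chains to form receptors for nonclassical MHC class I, and it rose with maturation in all 3 lines. In OT-1 it lay at 8.80, 6.64 and 6.95 in early, 22.0, 34.5 and 46.8 in late and 301, 328 and 298 in mature libraries. In TG6 it lay at 1.49, 0 and 0, then at 9.25 and 1.45, then at 229.6, 231 and 129. In F5 it lay at 0, 1.46 and 0, then at 0, 1.67 and 1.69, then at 71.6, 47.8 and 62.8. The mature libraries of the 3 lines did not overlap, in the order OT-1 (309 ± 16.7, SD, n = 3), TG6 (196 ± 58.4) and F5 (60.7 ± 12.0). The rise from late to mature was called in every line, by 5.25 ± 0.58 on the log2(value + 1) scale in TG6 (adjusted p = 1.6e-06), 4.98 ± 0.52 in F5 (adjusted p = 9e-07) and 3.19 ± 0.52 in OT-1 (adjusted p = 0.00015). From early to late it was called in OT-1 (2.01 ± 0.52, adjusted p = 0.0061, and 0.18 with a pseudocount of 0.1) and in TG6 (1.89 ± 0.58, adjusted p = 0.019), and the TG6 step was not called without TG6 late replicate 1 (0.86, adjusted p = 0.45) or TG6 early replicate 2 or 3 (1.67 for either, adjusted p = 0.068 and 0.070) or with a pseudocount of 5 (adjusted p = 0.078). OT-1 was above both other lines before maturation. At early positive selection OT-1 minus TG6 was 2.63 ± 0.52 (adjusted p = 0.00068) and OT-1 minus F5 2.64 ± 0.52 (adjusted p = 0.0013), differences against groups with 1 library above 0 each, so that their size depends on the pseudocount (OT-1 minus TG6 4.90 with a pseudocount of 0.1 and 1.19 with 5). At late positive selection OT-1 minus F5 was 4.14 ± 0.52 (adjusted p = 4.1e-06) and OT-1 minus TG6 2.76 ± 0.58 (adjusted p = 0.0022), the latter not called without TG6 late replicate 2 (1.73, adjusted p = 0.13) or with a pseudocount of 0.1 (adjusted p = 0.11). In mature cells OT-1 exceeded F5 5.09-fold (log2 2.35 ± 0.52, adjusted p = 0.0027, and 0.14 with a pseudocount of 0.1), F5 minus TG6 was -1.65 ± 0.52 (adjusted p = 0.063, and -1.92, adjusted p = 0.041, without TG6 mature replicate 3), and OT-1 minus TG6 was 0.70 ± 0.52 (adjusted p = 0.42). F5 minus TG6 in mature cells was also called without F5 late replicate 1 (adjusted p = 0.042) or TG6 late replicate 1 or 2 (adjusted p = 0.035 and 0.034). Golm1 (r = 0.959), Haao (0.953) and Mtrr (0.951) were most similar to Klrd1.

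Ly6c2 (chromosome 15, 75108158 to 75111970, minus strand) encodes a form of the Ly6C surface antigen, which is found on memory and activated CD8 T cells as well as on myeloid cells. It was high in OT-1 at every stage and in TG6 only in the mature cells. In OT-1 it lay at 87.9, 113 and 41.4 in early, 58.5, 68.4 and 24.95 in late and 223, 213 and 137 in mature libraries. In TG6 it lay at 8.48, 7.84 and 11.6, then at 6.75 and 11.1, then at 332, 406 and 506. In F5 it stayed between 2.97 and 9.80 before maturation and lay at 15.9, 16.1 and 9.81 in mature libraries. The lowest OT-1 library thus stood above all F5 libraries and above the early and late TG6 libraries, and within OT-1 replicate 3 was the lowest library at each stage. OT-1 exceeded TG6 8.70-fold at early (log2 2.89 ± 0.42, adjusted p = 2.5e-05) and 5.66-fold at late positive selection (log2 2.29 ± 0.47, adjusted p = 0.0018), and exceeded F5 11.1-fold, 7.97-fold and 13.7-fold at the early, late and mature stages (adjusted p = 1.5e-05, 4e-05 and 2.4e-06). In mature cells the order of the high lines was turned, with a TG6 mean of 414.5 ± 87.4 (SD, n = 3) and an OT-1 mean of 190.9 ± 47.3 that did not overlap and did not pass the test (OT-1 minus TG6 -1.13 ± 0.42, adjusted p = 0.095, and -0.97, adjusted p = 0.14, without TG6 mature replicate 3). With a pseudocount of 5 it was called (adjusted p = 0.048). TG6 mature cells exceeded F5 29.7-fold (F5 minus TG6 -4.81 ± 0.42, adjusted p = 3.3e-08, and -4.65, adjusted p = 5.5e-07, without that library). In TG6 the difference between early and late was within its error (-0.07 ± 0.47, adjusted p = 0.94) and then rose 46.3-fold (5.40 ± 0.47, adjusted p = 1e-07). In OT-1 it rose 3.77-fold from late to mature (1.98 ± 0.42, adjusted p = 0.0017). The OT-1 change from early to mature, 2.36-fold (1.31 ± 0.42, adjusted p = 0.027), was not called without OT-1 mature replicate 1 or 2 or OT-1 early replicate 3 (adjusted p = 0.092 to 0.17) or without the filter (adjusted p = 0.051). In F5 the mature libraries exceeded the late ones 2.19-fold without overlap (1.10 ± 0.42, adjusted p = 0.071), and this rise was called with the replicate number as a fixed block (adjusted p = 0.014), without F5 late replicate 1 (adjusted p = 0.032) and without OT-1 late replicate 3 (adjusted p = 0.049). The change from early to mature was larger in TG6 than in OT-1 (OT-1 minus TG6 -4.02 ± 0.60, adjusted p = 0.00025) and than in F5 (F5 minus TG6 -4.47 ± 0.60, adjusted p = 7.3e-05). The most similar genes were Igfbp4 (r = 0.897), Map2 (0.894) and the chemokine gene Ccl5 (0.888), which was at 0 in all 9 F5 libraries. Of the 817 stretches of 50 bases in the Ly6c2 transcripts, 31.2% are also found in transcripts of other genes, chiefly the neighbouring paralog Ly6c1, so a part of its reads could be divided between them. In the 3 OT-1 early libraries the sum of NK cell markers was 68.1, 61.7 and 22.5, so that the library lowest in Ly6c2 was also lowest there. The OT-1 late sums were 14.2, 14.45 and 20.1, highest in replicate 3, and the mature sums were 25.3, 27.05 and 25.2. In early cells OT-1 replicate 3 was also lowest in the myeloid markers Csf1r (42.8, 32.5 and 5.63), Lyz2 (93.9, 62.25 and 16.8) and Itgax (33.0, 52.2 and 13.8). It was highest in Xcr1 (13.0, 17.1 and 20.7) and not lowest in the sum of the 8 myeloid and dendritic markers (912, 875 and 884). Among late cells replicate 3 was lowest in Lyz2 and Itgax but not in Csf1r. Among mature cells it was lowest in none of these, and highest in Csf1r (4.89, 14.9 and 17.3). In late and mature cells the myeloid and dendritic markers went both ways. Of the late means, OT-1 exceeded TG6 for Csf1r (10.8 against 6.75), Lyz2 (25.6 against 3.92), Clec9a (9.25 against 2.79), Itgam and Cst3. Those of Itgax (5.86 against 6.38) and Xcr1 (15.5 against 25.5) were lower. Of the mature means, OT-1 exceeded TG6 for Csf1r (12.4 against 2.76) and Lyz2 (26.7 against 14.9), while those of Itgax (19.8 against 32.3), Clec9a (8.19 against 20.15) and Xcr1 (27.05 against 68.0) were lower. Over the TG6 mature libraries the sum of the 8 markers was 683, 843 and 1322, against 469 and 467 in late libraries, and replicate 3 was highest in that sum as it was in Ly6c2. In TG6 early libraries, where Ly6c2 lay at 8.48, 7.84 and 11.6, the sum was 884, 839 and 835. Cst3 made up most of it, with TG6 means of 590.5 in early, 366 in late and 762 in mature cells. The part of NK, myeloid and dendritic cells in the Ly6c2 values was not tested.

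Ifng and Xcl1 encode secreted proteins. Ifng (chromosome 10, 118441046 to 118445892, plus strand), the gene for interferon gamma, was listed at 0 in 13 of 26 libraries and reached 9.09 at most. The groups of highest mean were OT-1 mature, with 2.06, 1.04 and 9.09, and TG6 mature, with 1.01, 0 and 4.93. The TG6 early libraries were all at 0, and the TG6 late ones lay at 0.98 and 1.97. In F5, 2 of the 9 libraries held a value above 0 (0.97 and 1.01). The OT-1 libraries before maturation lay at 2.00, 0 and 1.97 in early and at 3.11, 1.05 and 0 in late positive selection. When all genes were fitted without the filter, no comparison was called for Ifng (OT-1 minus F5 in mature cells 1.66, adjusted p = 0.097, with an unadjusted p of 0.016, the smallest of its comparisons). Every library was above 0 in OT-1 mature and TG6 late cells and in no other group, and differences between groups were not detectable at this depth.

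Xcl1 (chromosome 1, 164931644 to 164935527, minus strand) encodes lymphotactin, a chemokine that CD8 T cells and NK cells release to attract cross-presenting dendritic cells. It was found almost entirely in TG6. It reached 10 in 3 libraries, all of them TG6 mature, and so passed the filter solely through the group in which it was high, which favours its calls against that group. Fitted with all genes and no filter, F5 minus TG6 and OT-1 minus TG6 in mature cells were also called (adjusted p = 3.6e-10 and 2.3e-07). Xcl1 was at 0 in 18 of 26 libraries, which lowers its pooled variance in both fits. Over all alternatives with every library kept, limma adjusted p was 1.8e-10 to 0.0016 for F5 minus TG6 and 2.7e-08 to 0.024 for OT-1 minus TG6. The TG6 mature libraries held 42.4, 62.0 and 34.5, the TG6 late libraries 4.89 and 4.91, and the TG6 early libraries 0. The OT-1 mature libraries held 1.03, 6.26 and 1.01, and the OT-1 early and late libraries and all 9 F5 libraries were at 0. Against a floor of 3 counts per library, the TG6 mature mean of 46.3 ± 14.1 (SD, n = 3) was at least 15.4-fold higher than the F5 mature level. The differences in mature cells were called for F5 minus TG6 (-5.52 ± 0.48, adjusted p = 2.3e-08) and for OT-1 minus TG6 (-3.89 ± 0.48, adjusted p = 8e-06), and both held without TG6 mature replicate 3 (-5.71, adjusted p = 1.8e-07, and -4.08, adjusted p = 1.9e-05). OT-1 mature cells were called above F5 (1.63 ± 0.48, adjusted p = 0.017), which rested on OT-1 mature replicate 2 (1.01, adjusted p = 0.13 without it) and was at the threshold without F5 mature replicate 3 (adjusted p = 0.050). The calls of OT-1 mature against OT-1 late and early cells (both 1.63 ± 0.48, adjusted p = 0.016 and 0.015) were likewise lost without that OT-1 library (adjusted p = 0.13 and 0.14), and a pseudocount of 5 ended these calls and that of OT-1 against F5 (adjusted p = 0.082 to 0.088). In late positive selection TG6 was above OT-1 and F5 by 2.56 ± 0.53 (adjusted p = 0.0019 and 0.004), the latter not called without TG6 late replicate 1 (adjusted p = 0.051) or 2 (adjusted p = 0.058). The change from early to mature was larger in TG6 than in OT-1 (OT-1 minus TG6 -3.89 ± 0.67, adjusted p = 0.00097, and 0.09 with a pseudocount of 0.1) and than in F5 (F5 minus TG6 -5.52 ± 0.67, adjusted p = 3.1e-05). The genes with the most similar pattern were the MHC class I gene H2-Q7 (r = 0.902), Tap1 (0.893), which encodes a subunit of the peptide transporter, and Gm8810 (0.891). Over the TG6 mature libraries the sum of Trav11, Trav11d and Traj18 was 39.4, 21.3 and 13.8, all of it Trav11. The NK cell markers summed to 23.1, 35.8 and 33.3. In TG6 early cells, where Xcl1 was at 0, Trav11 had a mean of 15.5. Of the myeloid and dendritic markers, named after their values were seen, TG6 mature means exceeded TG6 late means for Xcr1 (68.0 against 25.5), Clec9a (20.15 against 2.79) and Itgax (32.3 against 6.38), as for Cst3, Lyz2 and Cd14, and were lower for Csf1r (2.76 against 6.75) and Itgam (48.05 against 57.0). Replicate 3 was highest in Xcr1, Clec9a and Itgax (98.6, 34.8 and 49.3) and lowest in Xcl1. The part of these cells in the Xcl1 values was not tested.

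Nkg7 (chromosome 7, 43437073 to 43438249, plus strand) encodes a membrane protein of cytotoxic granules that is needed for their release, and was the most abundant of the 8 transcripts in normalized counts. In TG6 it lay at 15.8, 8.95 and 4.84 in early, 628 and 517 in late and 2666, 2597 and 1328 in mature libraries. In F5 it lay at 4.87, 14.5 and 4.85, then at 206, 124.5 and 188.5, then at 1882, 1704 and 2204. In OT-1 it lay at 87.9, 60.2 and 112, then at 1608, 1491 and 1642, then at 2753, 2793 and 2527. The libraries of a line did not overlap between stages, and the lines were apart in the order OT-1, TG6 and F5 at late positive selection and overlapped, OT-1 with TG6 and TG6 with F5, in mature cells. Nkg7 rose from early to late positive selection by 5.85 ± 0.40 on the log2 scale in TG6 (adjusted p = 8.8e-10), 4.39 ± 0.36 in F5 (adjusted p = 3.8e-08) and 4.21 ± 0.36 in OT-1 (adjusted p = 7.8e-08). From late to mature it rose further by 3.50 ± 0.36 in F5 (adjusted p = 8.6e-07) and 1.88 ± 0.40 in TG6 (adjusted p = 0.0019, and 2.20, adjusted p = 0.00073, without TG6 mature replicate 3), and the OT-1 difference of 0.77 ± 0.36 was not called (adjusted p = 0.13, and 0.00027 when only the groups compared were fitted). OT-1 minus TG6 was 3.10 ± 0.36 at early (adjusted p = 1.3e-06), 1.47 ± 0.40 at late (adjusted p = 0.016) and 0.36 ± 0.36 at the mature stage (adjusted p = 0.57, and 0.03, adjusted p = 0.97, without TG6 mature replicate 3). OT-1 minus F5 was 3.39 ± 0.36 (adjusted p = 9.9e-07), 3.21 ± 0.36 (adjusted p = 9.4e-07) and 0.49 ± 0.36 (adjusted p = 0.35, and 0.027 when only the groups compared were fitted). At late positive selection F5 was below TG6 (-1.75 ± 0.40, adjusted p = 0.01). The OT-1 and TG6 difference at that stage was not called without TG6 late replicate 1 (adjusted p = 0.067) or 2 (adjusted p = 0.14), nor was the F5 and TG6 difference (adjusted p = 0.14 and 0.067) or, without F5 late replicate 2, the latter (adjusted p = 0.052). The change from early to mature was smaller in OT-1 than in TG6 (-2.74 ± 0.51, adjusted p = 0.0021) and than in F5 (-2.91 ± 0.51, adjusted p = 0.0032). The genes most like Nkg7 followed it closely: Cd7 (r = 0.995), Fam101b (0.983) and Il2rb (0.977), the beta chain of the receptors for interleukin 2 and interleukin 15. Il2rb had group means of 29.9, 19.9 and 152.9 in TG6, F5 and OT-1 at early, 1199, 118 and 1919 at late and 2890, 2370 and 4059 at the mature stage, so that it too was lowest in F5 and highest in OT-1 among late cells.

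**Figure D1:**
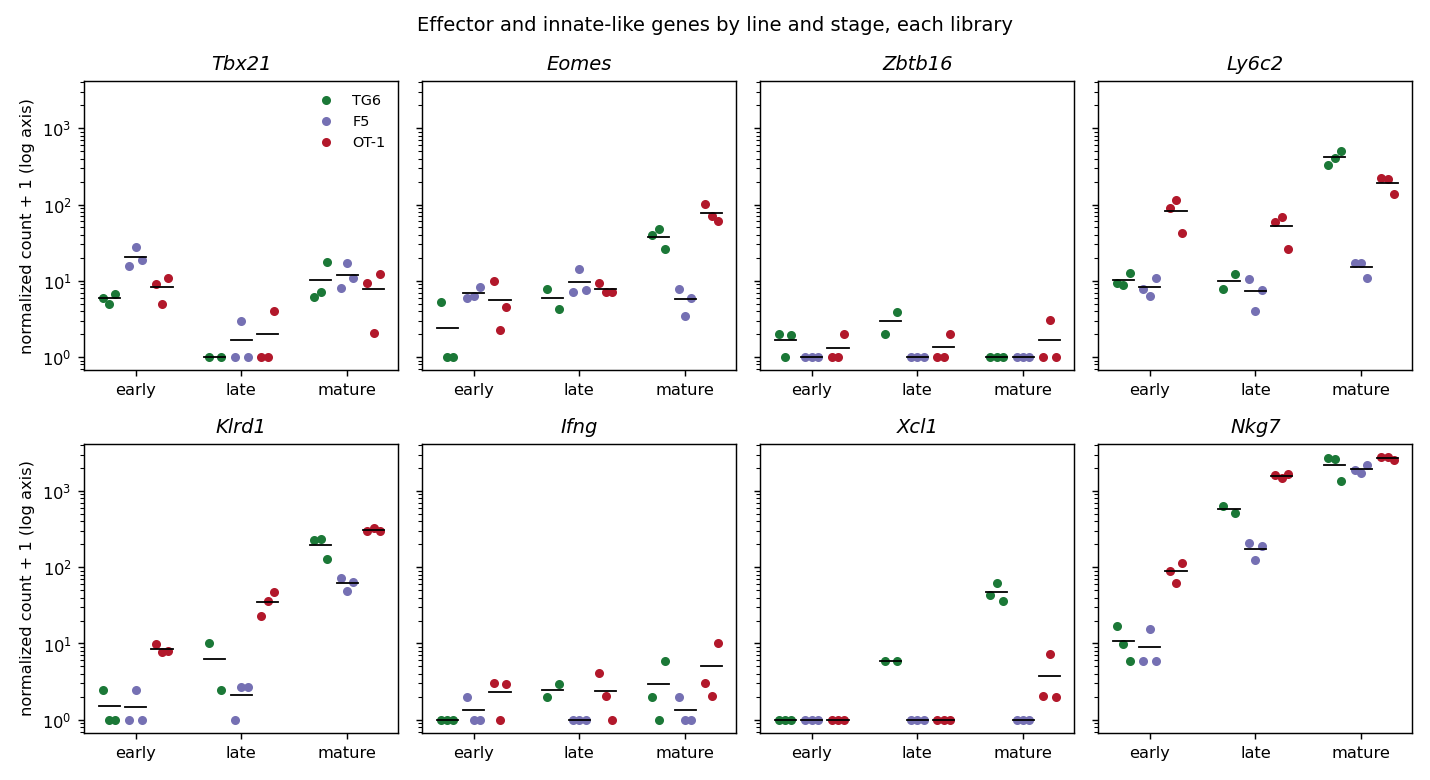
Each point is 1 library, plotted as normalized count + 1 on a log axis against stage, with black bars at group means (n = 3, and 2 for TG6 late). Zbtb16 and Ifng stay under 10 throughout, Xcl1 rises in TG6 mature libraries (34.5 to 62.0), Eomes in OT-1 and TG6 mature libraries, and Nkg7 in all lines.

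Set side by side, the same 3 members separated OT-1 from both other lines at early and at late positive selection, while those called in mature cells were partly others. The comparisons with OT-1 share the OT-1 libraries, and likewise for the other lines, so their counts are not independent. Xcl1, and mainly also Eomes, passed the filter through groups in which they were high, so counts that hold them are descriptions. At early positive selection 3 of 6 members stood higher in OT-1 than TG6 (Ly6c2, Klrd1 and Nkg7, with 15.4% of all genes called higher and 27.8% called in either direction), and the same 3 were higher than in F5 (7.81% of all genes called higher), while Eomes alone separated F5 from TG6 (3.12% called higher). The median difference of the members, OT-1 minus TG6, was 2.03, against -0.00 for all genes tested. At late positive selection the same 3 exceeded TG6 in OT-1 (9.34% of all genes) and Xcl1 was lower (6.21%), the 3 were higher in OT-1 than in F5 (13.6%), and Xcl1 and Nkg7 were lower in F5 than in TG6 (3.23%). In mature cells Xcl1 was the only member called between OT-1 and TG6 (lower in OT-1, 5.08% of all genes called lower and 9.74% in all). Eomes, Ly6c2, Klrd1 and Xcl1 were higher in OT-1 than in F5 (13.3%), and Eomes, Ly6c2 and Xcl1 were lower in F5 than in TG6 (4.50%). Without TG6 mature replicate 3 the share of all genes called between OT-1 and TG6 mature cells was 27.3%.

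**Figure D2:**
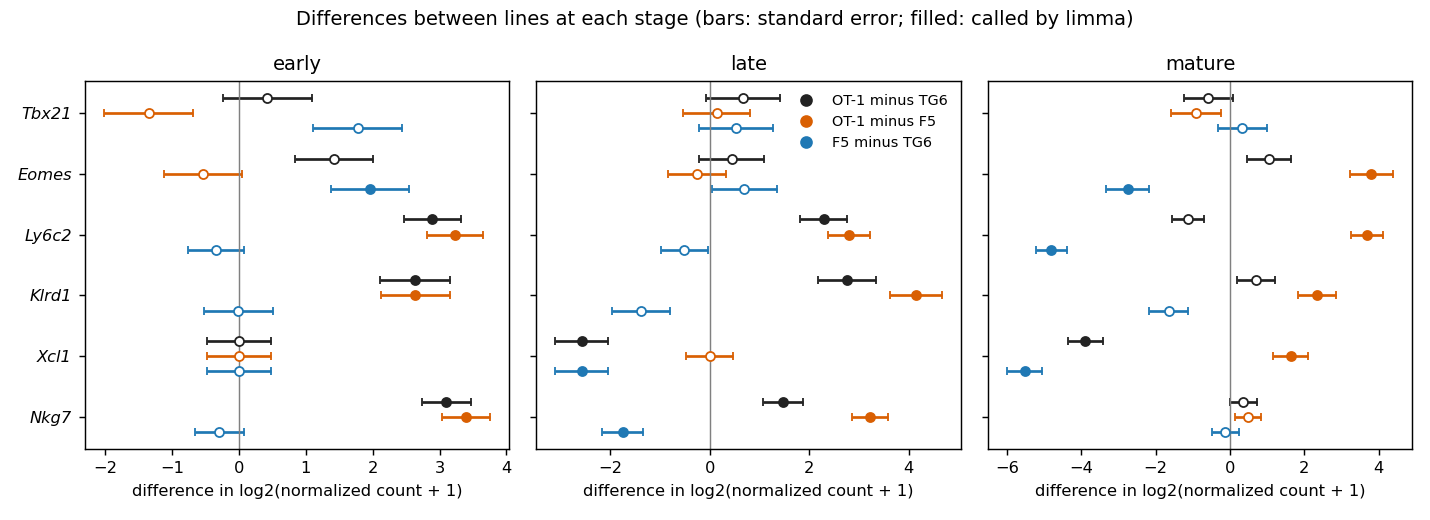
Differences between lines in log2(normalized count + 1) for the 6 members tested, 1 panel per stage, with standard errors as bars and filled points where limma called the difference. At the early stage OT-1 stands above both lines for Ly6c2, Klrd1 and Nkg7, and in mature cells F5 stands below TG6 for Eomes, Ly6c2 and Xcl1.

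Between stages, all 6 members rose from late positive selection to mature CD8SP in TG6 (14.5% of all genes were called higher in that step), 5 rose in OT-1 (all but Nkg7, 14.0% of all genes) and 3 in F5 (Tbx21, Klrd1 and Nkg7, 12.2%), with Ly6c2 a further one in F5 when the replicate number was a block (adjusted p = 0.014 as a fixed term). From early to late, Klrd1, Xcl1 and Nkg7 rose in TG6 (12.1% of all genes higher), with Eomes a further one there under the random block, Nkg7 rose in F5 (12.7%), and Klrd1 and Nkg7 rose in OT-1 (12.7%), while Tbx21 was the 1 member that fell in each line (13.3%, 14.0% and 14.0% of all genes called lower). Over the whole interval 5 members rose in TG6 and in OT-1, all but Tbx21 (19.4% and 12.8% of all genes), and 2 rose in F5, Klrd1 and Nkg7 (10.8%). The change from early to mature differed between TG6 and OT-1 for Ly6c2, Xcl1 and Nkg7, all smaller in OT-1 (2.91% of all genes called lower), between TG6 and F5 for Eomes, Ly6c2 and Xcl1, all smaller in F5 (3.05%), and between OT-1 and F5 for Eomes, larger in OT-1 (0.818% called higher), and Nkg7, smaller in OT-1 (0.825% called lower).

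**Figure D3:**
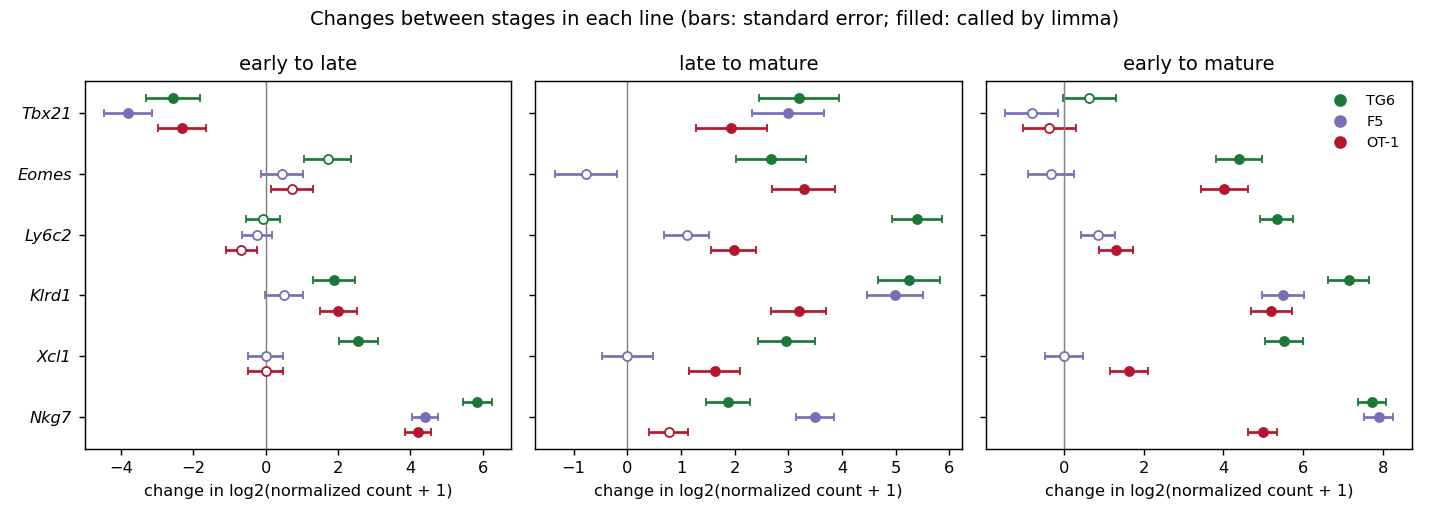
Changes between stages in log2(normalized count + 1) for the 6 members tested in each line, with standard errors as bars and filled points where limma called the change. Tbx21 falls from early to late and rises from late to mature in all lines, whereas no change of Eomes, Ly6c2 or Xcl1 is called in F5 in this fit, which has no replicate block.

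The 250 bases before the RefSeq start (GRCm38.p6) are shown for the 4 members with sequence here that separated TG6 or OT-1 mature cells from F5 or that moved most with stage. Capitals mark the T-box motif GGTGTGA and the Runx motif TGTGGT, searched as these letters on both strands, that is also as TCACACC and ACCACA.
Eomes (chr9:118477939-118478188, plus strand): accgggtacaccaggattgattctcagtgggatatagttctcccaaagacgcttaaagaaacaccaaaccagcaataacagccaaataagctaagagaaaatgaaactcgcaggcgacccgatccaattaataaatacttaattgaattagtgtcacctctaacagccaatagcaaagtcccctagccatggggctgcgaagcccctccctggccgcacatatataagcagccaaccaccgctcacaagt
Ly6c2 (chr15:75111972-75112221, minus strand): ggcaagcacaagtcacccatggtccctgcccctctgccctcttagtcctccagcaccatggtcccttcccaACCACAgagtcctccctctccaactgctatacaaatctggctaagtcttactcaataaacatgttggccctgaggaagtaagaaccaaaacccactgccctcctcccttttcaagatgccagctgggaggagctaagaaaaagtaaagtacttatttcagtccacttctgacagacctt
Xcl1 (chr1:164935523-164935772, minus strand): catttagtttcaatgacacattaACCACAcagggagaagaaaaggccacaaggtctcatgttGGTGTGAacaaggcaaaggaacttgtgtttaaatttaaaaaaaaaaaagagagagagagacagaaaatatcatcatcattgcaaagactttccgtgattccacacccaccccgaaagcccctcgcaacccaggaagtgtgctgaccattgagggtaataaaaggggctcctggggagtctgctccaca
Nkg7 (chr7:43436888-43437137, plus strand): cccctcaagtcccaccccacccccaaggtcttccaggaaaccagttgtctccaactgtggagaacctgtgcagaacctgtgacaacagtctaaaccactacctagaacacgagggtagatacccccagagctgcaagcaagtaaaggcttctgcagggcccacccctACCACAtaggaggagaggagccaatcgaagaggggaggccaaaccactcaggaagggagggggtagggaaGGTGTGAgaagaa
Of the 8 members, 6 had a RefSeq promoter entry, and Klrd1 and Zbtb16 had none. The T-box letters occur in the Xcl1 window, from 188 bases before the start, and in the Nkg7 window, from 13 bases before it, a stretch that the GENCODE annotation already places in the gene. They do not occur in the windows of Tbx21, Eomes, Ly6c2 and Ifng, and 3.33% of the 32851 promoter windows of this length hold them. The Runx letters occur in the windows of Ly6c2 (from 179 bases before the start, for the first of its 2 listed starts), Xcl1 (227) and Nkg7 (83), and in 14.0% of all windows. These matches are descriptions of the letters in the windows, and binding was not measured.

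Genes of the same programs were followed in 5 lists: partner transcription factors, cytotoxic and secreted effectors, NK receptors and adaptors, cytokine receptors upstream of the program, and memory-like surface genes. At early positive selection, where 15.4% of all genes were called higher and 12.4% lower in OT-1 than TG6, 7 of 12 partner factors stood higher and none was lower, among them Runx3, which sets up the CD8 lineage (1399 ± 245 against 636 ± 283, log2 1.21 ± 0.31, adjusted p = 0.0059), and Tox, a regulator of selected thymocytes (5404 ± 331.8 against 3527 ± 334, log2 0.62 ± 0.11, adjusted p = 0.0003). Tcf7, which maintains thymocyte and naive T cell identity, was not called there. Against F5, where 7.81% of all genes were called higher and 4.88% lower in OT-1, 1 of 12 partner factors (Irf4) was higher, 6 of 12 effector genes were higher and 1 lower, 2 of 8 NK genes (Cd160 and Tyrobp) and 1 of 11 cytokine receptors (Il2rb) were higher, and of 10 memory-like genes 1 was higher and 1 lower. The differences of the partner factors from TG6 were thus for the most part not called against F5. The count of partner factors was 4 without TG6 early replicate 2. Of the 12 effector genes tested from 18 listed, 7 were higher in OT-1 and none lower, including the protease genes Gzma (2347 ± 546 against 476 ± 65.0, log2 2.28 ± 0.53, adjusted p = 0.0029) and Ctsw (219.7 ± 31.4 against 42.3 ± 5.37, log2 2.35 ± 0.21, adjusted p = 2.8e-08) and Srgn, the granule proteoglycan (2730 ± 577 against 1208 ± 96.5, log2 1.16 ± 0.22, adjusted p = 0.00046). The list medians were 0.82 and 1.2 on the log2 scale, against -0.00 for all genes. Of the 8 NK receptor and adaptor genes tested from 20 in the table, 5 were higher in OT-1, including Cd160 (203 ± 11.8 against 32.0 ± 13.6, log2 2.72 ± 0.33, adjusted p = 2.4e-06) and Hcst (248 ± 61.5 against 127 ± 15.7, log2 0.94 ± 0.23, adjusted p = 0.0043), and the count was 3 without OT-1 early replicate 1. Of the other receptors and surface genes, 2 of 11 cytokine receptors were higher and 1 lower, near the share over all genes (5 called without TG6 mature replicate 3), with the abundant Il2rg, Il4ra and Ifngr1 not called, and 3 of 10 memory-like genes were higher and 3 lower, among them Slamf6 (2640 ± 368 against 4956 ± 168, log2 -0.92 ± 0.20, adjusted p = 0.0015). Tyrobp and Fcer1g, called among the NK adaptors, also stood in the list of NK cell markers and are expressed by myeloid cells, whose markers Csf1r, Lyz2 and Itgax had higher means in the same OT-1 libraries. Itgam (75.7 against 219.5 in TG6) and Xcr1 (16.9 against 21.4) had lower ones. The sum of all 8 myeloid and dendritic markers was 875 to 912 in OT-1 and 835 to 884 in TG6. The part of myeloid cells in these counts was not tested.

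In mature CD8SP cells 5 of 12 effector genes were lower in F5 than in TG6 and none higher (6 lower and 1 higher without TG6 mature replicate 3), with a list median of -0.83 against -0.01 for all genes and 4.50% of all genes called lower. Of all genes, 2.14% were called higher, and 8.63% were called in either direction without TG6 mature replicate 3. The 5 effector genes lower in F5 were Gzmb, Prf1, Ccl5, Tnfsf10 and Ctsw. Gzmb and Ccl5, like Klrk1 and Klrb1f among the NK receptors, reached 10 only in TG6 or OT-1 libraries and so passed the filter through groups in which they were high, which favours their calls against F5, and the counts and median that hold them are descriptions. Genes of the lists other than the 3 most abundant of each list, and other than Ccl5, were chosen after their values were seen. Ctsw had a mean of 1938 ± 261 in F5, 3946 ± 1280 in TG6 and 4543 ± 639 in OT-1. Gzmb, which encodes granzyme B, held 12.1 to 18.7 in TG6 and 18.2 to 31.3 in OT-1 mature libraries and at most 1.01 in F5. Among the NK receptors, Klrk1 (31.2 ± 1.99 in TG6, 18.1 ± 3.85 in OT-1 and 1.64 ± 0.92 in F5) and Klrb1f were lower in F5 than in TG6, 2 of 8, and none was higher. Klrk1 encodes NKG2D, an activating receptor. Of the partner factors, Bhlhe40, Irf4 and Hopx were lower in F5 than in TG6 and Tcf7 was higher (53085 ± 1139 against 34981 ± 8048, log2 0.63 ± 0.11, adjusted p = 0.00046), while no cytokine receptor was called (1 was without TG6 mature replicate 3) and 2 of 10 memory-like genes, Cxcr3 and Ly6a, were lower (3 lower and 1 higher without that library, where the partner factors were 2 lower and 1 higher). Hopx was high in TG6 and OT-1 mature cells but not in F5, so its call too is a description. Between OT-1 and TG6 mature cells, where 4.67% of all genes were called higher and 5.08% lower in OT-1 (27.3% in all without TG6 mature replicate 3), 3 of 12 partner factors and 2 of 12 effector genes (Gzma and Srgn) were higher in OT-1 and none lower, 1 of 11 cytokine receptors was higher, 1 of 10 memory-like genes was higher and 2 lower, and 1 of 8 NK genes, Cd226, was lower (1264 ± 132 against 2330 ± 766, log2 -0.83 ± 0.23, adjusted p = 0.025). These counts moved with single libraries. The partner factors called were 1 without OT-1 mature replicate 3, the effector genes called were 1 without OT-1 mature replicate 1 or 3 or TG6 mature replicate 1 or 2 and 5 without TG6 mature replicate 3 (3 higher and 2 lower), the cytokine receptors called were 2 without TG6 mature replicate 3, the memory-like genes called were 1 without TG6 mature replicate 2, and Cd226 was not called without OT-1 mature replicate 1 or 2 or TG6 mature replicate 1 or 2.

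Over the interval from early positive selection to mature CD8SP, in which 19.4% of all genes were called higher in TG6, 10.8% in F5 and 12.8% in OT-1, 7 of 12 effector genes rose in TG6, 4 in F5 and 5 in OT-1, with none falling, and 6, 3 and 4 of 8 NK genes rose, with none falling. Cd160 and Hcst rose in every line, as did Runx3, while Tcf7 and Tox fell in every line (Tcf7 from 73797 ± 4794 to 34981 ± 8048 in TG6, from 78361 ± 3630 to 53085 ± 1139 in F5 and from 72434 ± 1986 to 37597 ± 3931 in OT-1). The cytokine receptor genes moved both ways, with Il2rg rising in every line, and Ifngr1 fell by 2.35, 1.72 and 0.96 on the log2 scale in TG6, F5 and OT-1. Among the memory-like genes, Sh2d1a, the adaptor of the Slam receptors, fell in every line, and Ly6e fell from early to late positive selection and rose from late to mature in every line. Of the 12 NK receptor genes under the filter, Klrc1, Klrc2 and Klrc3, whose products pair with that of Klrd1, were among those not tested.

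**Figure D4:**
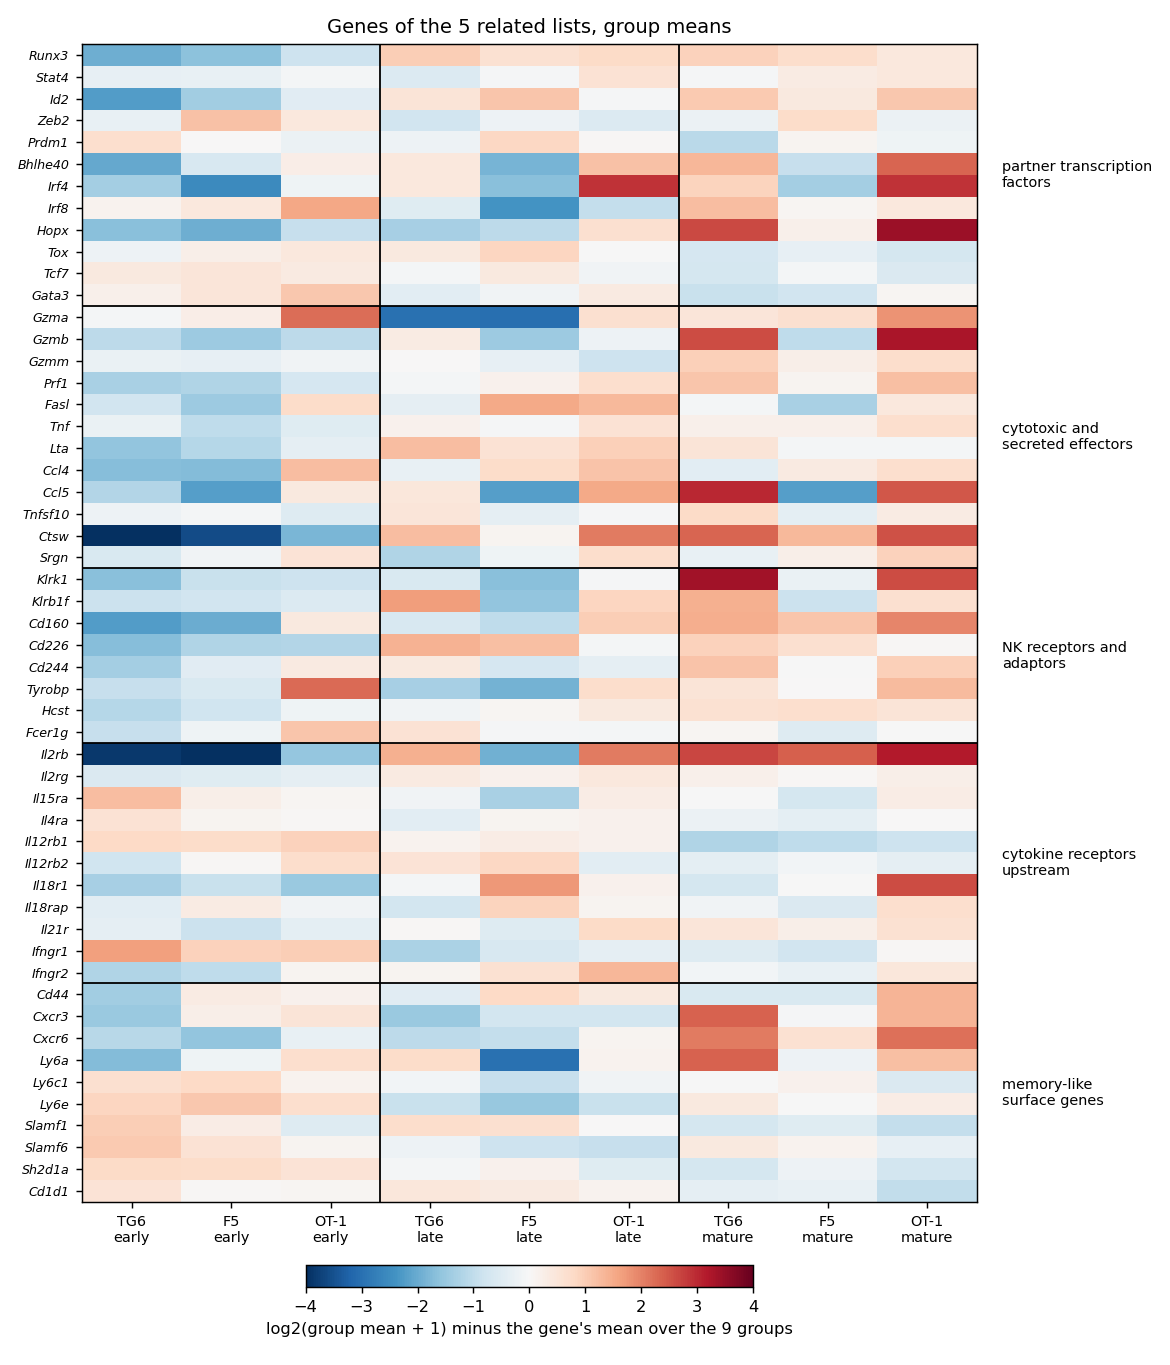
Heat map of the genes tested in the 5 related lists, with group means as log2(mean + 1) minus the gene's mean over the 9 groups. Columns are groups by stage and line. Ctsw and Runx3 are lowest in the early columns, and Gzmb, Ccl5, Klrk1 and Hopx are high in the TG6 and OT-1 mature columns but not in the F5 one.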

How the data were processed

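RNA-seq was run on 26 sorted thymocyte libraries in 9 groups. The deposited values are normalized counts per gene symbol (a signal scale): the authors used Trimmomatic 0.32 for trimming, Bowtie2 2.3.2 for alignment to mm10 and RSEM 1.2.31 for estimated counts, which DESeq2 size factors then scaled, as the submitters' processing notes and the methods give it. Totals were 16134786 to 18944173 per library. Of the values above 0, 41.3 to 44.2% per library lay within 0.01 of a whole multiple of the library's step for 1 read, so no count test was run. Read length and strand setting are not given in the sources used here, so reads of overlapping genes on opposite strands cannot be assigned with certainty.

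Symbols that reached 10 in 2 or more libraries (16372 of 46517, with 18280 at 0 throughout) were fitted as log2(value + 1) with limma 3.58.1 in R 4.3.3, in 1 model of all 9 groups (17 residual degrees of freedom), with the prior variance allowed to depend on mean level. The Benjamini-Hochberg adjustment of p-values ran over all genes tested in each comparison, and "called" means an adjusted p under 0.05. Fold changes on this scale understate the change of low genes. Folds in the text are ratios of group means, with a floor of 3 counts per library where a group is at 0. Simulated data for OT-1 minus TG6 at early positive selection gave back 152 of 200 changed genes, and 100 of 100 at a log2 change of 2, with 14 false calls among 16372 genes. The changed genes all had higher means than Tbx21 (7.01), Eomes (17.2) and Xcl1 (6.04), and every gene was given the same dispersion. The recovery therefore does not cover these members.

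The members and gene lists were chosen with earlier results of these data known. Named genes are the 8 members, the 3 genes of highest mean in each related list and the 3 genes most like each tested member by Pearson correlation over libraries. Further list and marker genes were named after their values were seen. Same-numbered libraries deviated together in F5 (9 pairs, correlations 0.106 to 0.34) but not throughout in OT-1 (9 pairs, 0.0189 to 0.178) or TG6 (7 pairs, 0.023 to 0.274). Alternatives were a pseudocount of 0.1 or 5, dropping the filter, requiring a mean of 50, scaling to totals, quantile normalization, a fit of only the groups compared, a prior without a trend, a replicate block and leaving out each library. Promoter sequences are from RefSeq (GRCm38.p6) and gene positions from GENCODE (GRCm38).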

Additional observations from a re-analysis of the deposited data

Results flagged for a closer look

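The change from early positive selection to mature CD8SP differed between lines for 4 members, tested as the difference of the changes in the limma model. For Eomes it was larger in OT-1 than in F5 by 4.35 on the log2 scale (adjusted p = 0.0058, and 0.096 with a pseudocount of 0.1), and F5 minus TG6 was -4.71 (adjusted p = 0.0013). Eomes passed the filter on low values mainly through the OT-1 and TG6 mature libraries, which favours these calls. Both were also called in the fit without that filter. For Ly6c2, OT-1 minus TG6 was -4.02 (adjusted p = 0.00025) and F5 minus TG6 was -4.47 (adjusted p = 7.3e-05). For Xcl1, OT-1 minus TG6 was -3.89 (adjusted p = 0.00097, and 0.09 with a pseudocount of 0.1) and F5 minus TG6 was -5.52 (adjusted p = 3.1e-05). Xcl1 passed the filter on low values only through the TG6 mature libraries, which favours these calls, and both were also called in the fit without that filter (adjusted p = 0.00012 and 2.2e-06). Its 18 libraries at 0 lower its pooled variance in both fits. For Nkg7, OT-1 minus TG6 was -2.74 (adjusted p = 0.0021) and OT-1 minus F5 was -2.91 (adjusted p = 0.0032). Without TG6 mature replicate 3, the library that stood apart, the differences that use TG6 were all still called: -4.95 for Eomes in F5 minus TG6 (adjusted p = 0.0012), -3.87 and -4.32 for Ly6c2 (adjusted p = 0.00054 and 0.00016), -4.08 and -5.71 for Xcl1 (adjusted p = 0.0011 and 4e-05) and -3.07 for Nkg7 in OT-1 minus TG6 (adjusted p = 0.00054). Dixon's test for a single distant library was not run, since the groups hold 2 or 3 libraries each.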

How the results depend on the processing

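Calls of the 6 tested members were counted over the comparisons of each kind. With a mean of at least 50 required, which leaves Ly6c2, Klrd1 and Nkg7, the calls were 3 between lines in mature cells (8 with the filter used), 8 between TG6 stages (15), 7 between OT-1 stages (13) and 4 for differences between lines in the change from early to mature (8). Without TG6 late replicate 2 the calls between lines at late positive selection were 5 (9). Over the libraries left out in turn, the calls were 6 to 8 between lines at early, 5 to 9 at late and 7 to 9 at the mature stage, 13 to 16 between TG6 stages, 7 to 8 between F5 stages, 10 to 13 between OT-1 stages, 8 to 8 for the differences in change and 371 to 473 over the related lists. With the replicate block as a random effect the calls were 6 at early, 9 at late and 8 at the mature stage between lines, 16 between TG6 stages, 8 between F5 stages and 13 between OT-1 stages. No called difference of a member turned its direction under any alternative run. With a pseudocount of 0.1, calls were lost for Eomes in F5 minus TG6 mature cells (adjusted p = 0.081), TG6 mature minus late (0.065) and the OT-1 minus F5 change (0.096), for Klrd1 in OT-1 minus TG6 late (0.11), OT-1 minus F5 mature (0.14) and OT-1 late minus early (0.18), and for Xcl1 in the OT-1 minus TG6 change (0.09). With a pseudocount of 5, calls were lost for Tbx21 in TG6 late minus early (0.079) and OT-1 mature minus late (0.074), for Eomes in F5 minus TG6 early (0.16), for Klrd1 in TG6 late minus early (0.078), and for Xcl1 in OT-1 mature cells against F5 mature, OT-1 late and OT-1 early cells (0.082 to 0.088). Calls were gained for Eomes in OT-1 minus TG6 early (0.016) and TG6 late minus early (0.015) at 0.1, and at 5 for Tbx21 in F5 minus TG6 early (0.031), Ly6c2 in OT-1 minus TG6 mature (0.048), and Klrd1 in F5 minus TG6 mature (0.00093) and in the F5 minus TG6 change (0.03). Scaling to totals moved the median of all genes to between -0.08 and -0.13 in the comparisons of OT-1 with the other lines, to -0.11 in TG6 mature minus late and to -0.12 in TG6 mature minus early. At this depth values under about 10 rest on few reads, which limits Zbtb16 and Ifng throughout, most Tbx21 values (7 libraries reached 10), and the early and most late groups of Eomes, Klrd1 and Xcl1. It also limits Eomes in F5 mature cells and Xcl1 in F5 and OT-1 mature cells. The same holds for most values of Ly6c2 in TG6 and F5 early and late cells and of Nkg7 in their early cells. Folds against these groups rest on low values. The causes of these changes were not tested.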
